A study of Homo sapiens with 24 samples.

Results

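The genes described here are 10 members of the human tripartite motif (TRIM) family with known roles in antiviral defence, TRIM5, TRIM14, TRIM21, TRIM22, TRIM25, TRIM26, TRIM34, TRIM38, TRIM56 and TRIM69. They were taken by name from the 60609 gene rows of the expression table, and all 10 had a row and passed the filter on low values (at least 1 TPM in at least 3 libraries), as did 16062 rows in all. The table gives transcript abundance as TPM, each gene's share of the sequenced RNA after correction for transcript length, scaled so that a library sums to 1000000. The cells were A549, an established human lung adenocarcinoma line. They had been transfected for 48 h with a pool of small interfering RNAs (siRNAs) against BOP1, a ribosome assembly factor (siBOP1), or with an siRNA against firefly luciferase, a gene human cells lack, as the control (siFLuc). They were then kept in medium with interferon beta (IFN) at 1000 units/mL or given a mock stimulation, for 8 h or 12 h. This gives 8 groups of 3 libraries: siFLuc mock, siFLuc IFN, siBOP1 mock and siBOP1 IFN, each at 8 h and at 12 h. All groups share the cell line and an siRNA transfection, so none is an untransfected control. A single siRNA pool was used against BOP1. The series title concerns translation, but these libraries measure RNA abundance only.

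TRIM proteins typically carry, in order, a RING domain that makes most of them E3 ubiquitin ligases, B-box zinc fingers and a coiled coil, often followed by a PRYSPRY domain that binds the target. Members of the family act on viral capsids, on the sensors of viral RNA and DNA, and on the kinases and transcription factors downstream of those sensors, some as activators and some as brakes. Type I interferon signals through its receptor to the factor ISGF3, which binds the interferon-stimulated response element (ISRE) at many antiviral genes, among them a number of TRIM genes.

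The promoter sequences of the genes are shown first, as a description. Windows of 300 bases, from 250 before to 50 after the annotated gene start, came from RefSeq on build GRCh38.p14. Of the 10 genes 9 matched, all but TRIM22, and TRIM34 had 2 starts. Both strands were searched for the ISRE core, written as GAAA, any 2 bases, then GAAA. It was found in the windows of 6 of the 9 genes. Each line gives 30 bases around the match, read 5′ to 3′ on the strand that carries the GAAA letters, with the match in capitals.
TRIM5, chr11:5685082-5685111, plus strand: ctcagggcagGAAAGTGAAAgataaactat
TRIM14, chr9:98119229-98119258, plus strand: gctcccaaggGAAACCGAAAcctcggccgt
TRIM21, chr11:4393663-4393692, minus strand: ctgagcgGAAACTGAAAGTGAAAtagggag
TRIM26, chr6:30213578-30213607, plus strand: gggcagcGAAATGGAAACTGAAAtcaggcg
TRIM34, first start, chr11:5624901-5624930, minus strand: cctgagaaatGAAAGTGAAAtttttggggc
TRIM69, chr15:44736456-44736485, minus strand: ttgcttaagaGAAAGAGAAAccctcattag

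In TRIM5 and TRIM14 the match lay just upstream of the gene start, 27 to 18 and 26 to 17 bases before it. In TRIM69 it lay 62 to 53 bases and in TRIM34 90 to 81 bases before the start. TRIM26 had its match 194 to 179 bases before the start, and TRIM21 had its match 17 to 32 bases after it. The capitals of TRIM21 and TRIM26 are longer because 2 matches overlapped by a shared GAAA. TRIM5 and TRIM34 shared the same 10 letters in capitals. The windows of TRIM25, TRIM38 and TRIM56, and that of the second start of TRIM34, did not contain these letters. Counted by window, 3.57% of all 35116 windows of the RefSeq table held the core. Counted by gene, the share was 20.5% of 665 genes with a window that rose with IFN in siFLuc cells at 8 h. A gene counted once if any of its windows matched, and the 665 include the 9 members with a window. Among the other genes tested the share was 2.95% of 10324. A match is only a run of letters and does not show that a factor was bound. Whether the matches had a part in the rise with IFN was not tested.

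**Figure D1:**
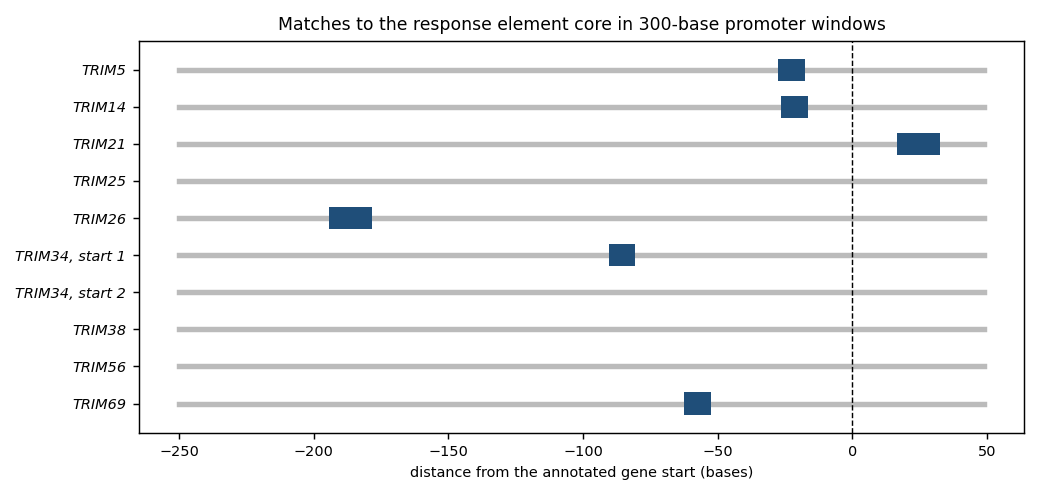
Position of ISRE core matches in the promoter windows of the 9 genes with an entry. The x axis is the distance from the annotated gene start in bases (dashed line at 0), grey bars are the windows from 250 bases before to 50 bases after the start, and blue boxes are matches on either strand; 6 genes have a match, at distances from 194 bases before to 32 bases after the start.

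For BOP1, the siRNA target, the libraries of both siRNAs did not overlap. It lay between 10.0 and 19.5 TPM in the siBOP1 libraries and between 32.4 and 78.8 TPM in the siFLuc libraries, and its log2 differences ran from -1.9984 in mock cells at 12 h to -1.69 in IFN cells at 8 h (limma, highest adjusted p = 1.6e-05). The libraries had 13844 to 14509 genes at 1 TPM or more. Of the A549 markers KRT8 lay between 2086 and 3803 TPM and AKR1C2 between 2856 and 3759 TPM, while EPCAM was low at 1.92 to 5.48 TPM. Of 12 markers of other cell types, CD3E was listed at 0 in every library, PTPRC reached at most 0.021 TPM and PECAM1 at most 0.345 TPM. CD68, a lysosomal protein gene not limited to leukocytes, lay between 38.5 and 402 TPM. COL1A1 lay between 5.37 and 19.3 TPM and the leukocyte marker CD14 between 1.81 and 5.26 TPM. The library of siFLuc mock cells at 12 h numbered 4 stood apart, with 6.86% of its TPM in mitochondrial genes against 10.9% to 15.9% in the others. Libraries of a group are given below in the order of their numbers in the table, 1, 2 and 4.

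In mock-treated siFLuc cells at 8 h the 10 genes spanned a range from TRIM25 at 52.8 ± 3.27 TPM (mean ± SD, n = 3) to TRIM22 at 1.63 ± 0.773 TPM. TRIM25 stood above all other members in that group with no overlap. Below it TRIM26, TRIM5, TRIM21, TRIM14 and TRIM56 followed each other from 15.0 ± 0.822 to 9.82 ± 1.83 TPM, each overlapping its neighbour in the order. TRIM69 at 6.73 ± 1.20, TRIM34 at 3.82 ± 0.438 and TRIM38 at 2.97 ± 0.266 TPM were lower, without overlap between neighbours. With IFN for 8 h the summed level of the 10 genes went from 132 ± 4.05 to 1004 ± 98.1 TPM. The order changed mainly through TRIM22, which moved from last to second place at 227 ± 31.3 TPM, overlapping TRIM25 at 265 ± 17.9 TPM. After 12 h of IFN TRIM22 was first, at 276 ± 31.9 TPM in siFLuc cells and 278 ± 22.3 TPM in siBOP1 cells, with no overlap with TRIM25 in either. TRIM22 made up 0.579% to 1.68% of the summed level in mock siFLuc cells at 8 h and 21.5% to 23.4% with IFN.

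**Figure D2:**
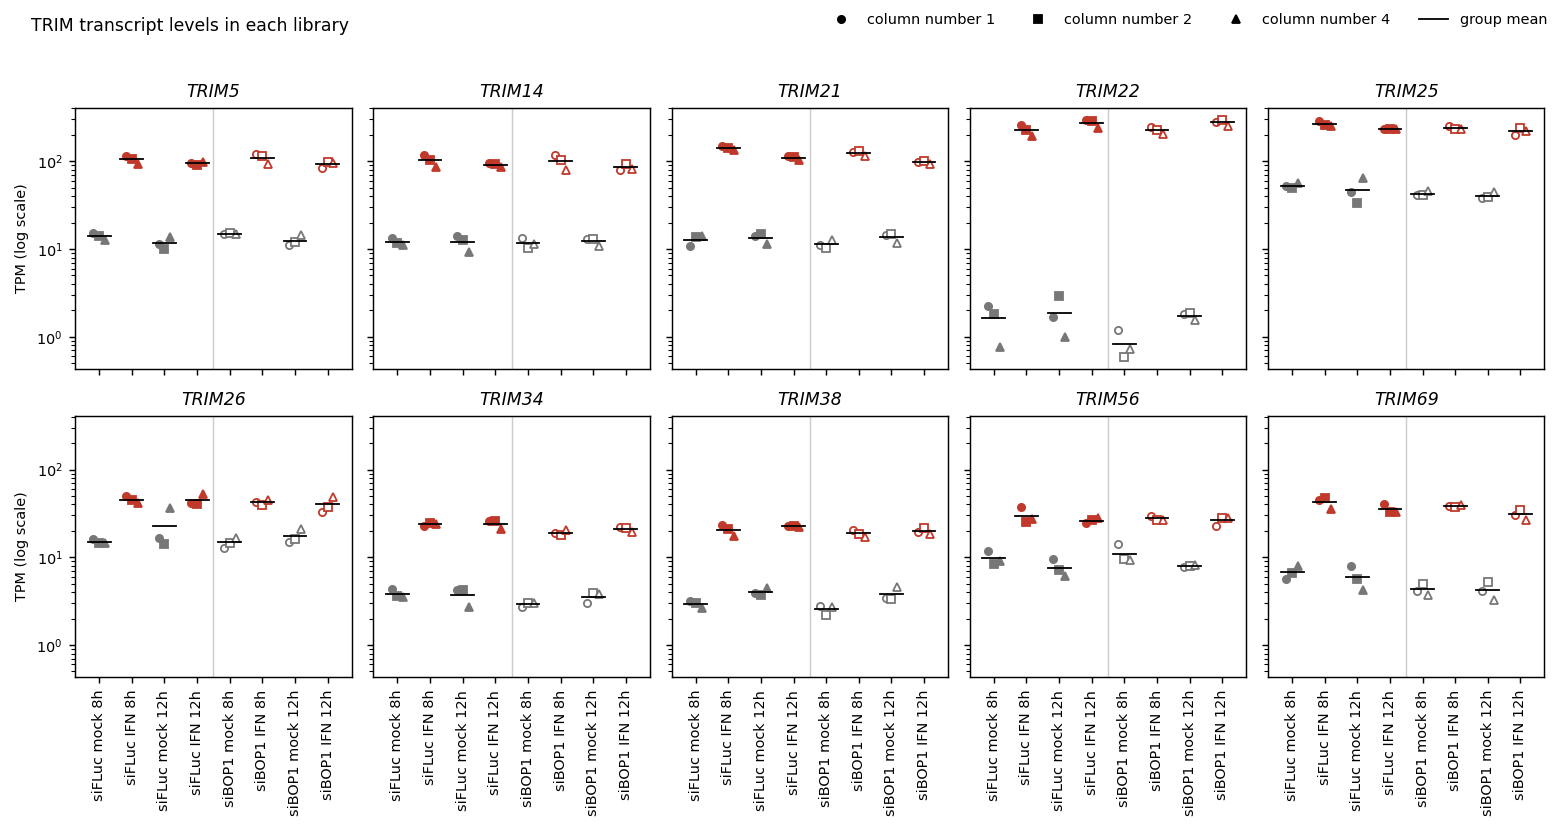
TPM of each of the 10 TRIM genes (log scale) in all 24 libraries, by group on the x axis; grey is mock, red is IFN, filled marks are siFLuc, open marks are siBOP1, the shape gives the library number and the line the group mean. For each gene and in every siRNA and time, the 3 IFN libraries lie above the 3 mock libraries, and TRIM22 spans the widest range, from 0.59 to 298 TPM.

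All 10 genes rose with IFN in both siRNA conditions and at both times, and in each of these 4 comparisons every IFN library lay above every mock library for every member. Among all genes tested, 5.77% were called higher with IFN in siFLuc cells at 8 h, 7.06% at 12 h, 5.99% in siBOP1 cells at 8 h and 7.17% at 12 h (limma, adjusted p under 0.05). The share of all genes whose 3 IFN libraries lay above the 3 mock libraries was 9.92%, 11%, 10.1% and 12.4% in the same order. The median log2 fold change of the 10 genes was 2.47, 2.43, 2.63 and 2.51, against -0.09, -0.06, -0.14 and -0.08 over all genes tested. Fold changes were taken from log2(TPM + 1), so that the added 1 makes the change of a gene with a low mock level, such as TRIM22, look smaller than it is. Because the cells were measured in bulk, a change in all cells and a larger change in some of them cannot be told apart.

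**Figure D3:**
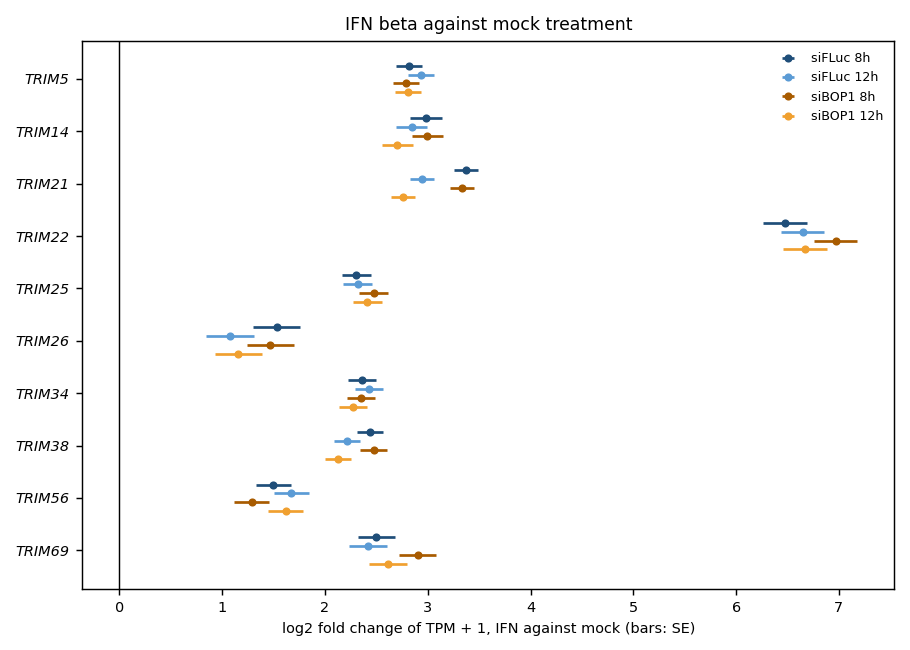
Log2 fold change of TPM + 1 between IFN and mock (x axis) for each TRIM gene, with limma standard errors as bars, in siFLuc and siBOP1 cells at 8 h and 12 h. All 40 values lie above 0, from 1.08 for TRIM26 in siFLuc cells at 12 h to 6.97 for TRIM22 in siBOP1 cells at 8 h.

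TRIM5, TRIM22 and TRIM34 are neighbours on chromosome 11 and encode closely related proteins that can act on retroviral capsids or transcripts. TRIM22 (chr11:5689689-5737089, plus strand, GRCh38) encodes a nuclear and cytoplasmic ligase known to restrict HIV-1 transcription and influenza A virus. In siFLuc cells at 8 h its TPM was 2.27, 1.84 and 0.770 in mock and 258, 227 and 196 with IFN, and at 12 h it was 1.68, 2.92 and 0.988 in mock and 298, 291 and 239 with IFN. The siBOP1 libraries gave 1.19, 0.587 and 0.727 in mock and 244, 230.3 and 206 with IFN at the earlier time, and 1.82, 1.84 and 1.55 in mock and 282, 298 and 254 with IFN at the later. Over the 24 libraries it thus lay between 0.587 and 2.92 TPM in mock and between 196 and 298 TPM with IFN. The log2 fold changes were 6.48, 6.65, 6.97 and 6.67 (SE 0.21) for siFLuc at 8 h and 12 h and siBOP1 at 8 h and 12 h (limma, adjusted p = 9.89e-16 in siFLuc at 8 h). The ratio of mean TPM was 139.5, 148, 272 and 159.7, and it moves with mock levels that are close to 0.

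TRIM5 (chr11:5663557-5938619, minus strand), whose product binds incoming retroviral capsids, went from 15.3, 14.0 and 12.7 TPM to 116, 106 and 93.4 TPM in siFLuc cells at 8 h. Its values in the other 3 IFN groups lay between 84.1 and 122 TPM and in the other 3 mock groups between 9.91 and 15.4 TPM, so the ratio of means stayed near 7 to 8 (7.51, 8.14, 7.35 and 7.45). The log2 fold changes were 2.82, 2.93, 2.79 and 2.81 (SE 0.13; limma, adjusted p = 2.1e-13 in siFLuc at 8 h). TRIM34 (chr11:5619764-5644398, plus strand), a TRIM5 relative that takes part in capsid restriction, went from 4.32, 3.66 and 3.49 TPM to 22.9, 24.3 and 23.7 TPM. It rose by 2.36, 2.43, 2.35 and 2.28 on the log2 scale (SE 0.14; limma, adjusted p = 2.03e-11 in siFLuc at 8 h). The library kit marked strand, but whether the counting used it is not stated. By the positions given here TRIM5 and TRIM22 overlap on opposite strands, so reads in the shared stretch may be divided between them. The RefSeq start of TRIM5 used for its promoter window, at base 5685074, lies outside TRIM22, so the overlap depends on the annotation.

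TRIM6, the next TRIM gene along the same stretch (chr11:5596109-5612958, plus strand), did not pass the test in any of the 4 comparisons. Its log2 fold changes were 0.25, 0.21, 0.20 and 0.36 (SE 0.14; limma, adjusted p = 0.323, 0.386, 0.401 and 0.104). In siBOP1 cells at 12 h it passed with the library number as a block (limma, adjusted p = 0.0407) and with 2 other scalings of the table, at log2 fold changes of 0.42 after median-of-ratios rescaling and 0.41 after quantile normalization (limma, adjusted p = 0.0318 and 0.0366). In siFLuc cells at 8 h its TPM was 11.8, 8.10 and 10.0 in mock and 11.9, 12.5 and 11.4 with IFN. The readthrough gene that joins TRIM6 and TRIM34 was listed at 0 in all libraries but 2, where it was 0.287 TPM (siFLuc mock at 12 h, number 1) and 0.171 TPM (siFLuc IFN at 12 h, number 2), and it was too low to be tested. How reads shared by these related and overlapping genes were assigned is not given in the sources used here.

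TRIM21 (chr11:4384897-4393696, minus strand) encodes a cytosolic antibody receptor that binds the Fc part of immunoglobulin G on viruses that enter the cell and has them degraded. In siFLuc cells it went from 10.7, 13.8 and 14.0 TPM to 149, 142 and 134 TPM at 8 h and from 14.1, 15.0 and 11.5 to 116, 111 and 104 at 12 h. In siBOP1 cells it went from 11.2, 10.4 and 12.7 to 128, 129 and 114 at 8 h and from 14.3, 15.0 and 11.7 to 98.3, 101 and 94.2 at 12 h. Its log2 fold changes of 3.37 and 3.33 at 8 h were second to those of TRIM22 among the members, and at 12 h they were 2.94 and 2.76 (SE 0.12; limma, adjusted p = 2.21e-15 in siFLuc at 8 h). In both siRNA conditions all 3 IFN libraries at 12 h were below all 3 IFN libraries at 8 h. The same held for TRIM25 in siFLuc cells and for TRIM69 in siBOP1 cells, while TRIM22 in siBOP1 cells went the other way. The IFN libraries at the 2 times were not compared by a test of their own. The share of all genes without overlap between the times was not counted.

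TRIM25, TRIM14 and TRIM56 act on the pathways that sense viral nucleic acids. TRIM25 (chr17:56836387-56914080, minus strand) attaches ubiquitin to the RNA sensor RIG-I and is a cofactor of the zinc finger antiviral protein. It went from 52.5, 49.8 and 56.3 TPM to 286, 257 and 253 TPM in siFLuc cells at 8 h, and from 44.6, 33.8 and 63.8 to 232, 233 and 232 at 12 h. The mock library numbered 4 at 12 h was the highest of the mock values, and the IFN libraries at that time were nearly equal. The highest member in mock cells thus rose by 2.31, 2.32, 2.47 and 2.41 on the log2 scale (SE 0.14; limma, adjusted p = 5.52e-11 in siFLuc at 8 h), with ratios of mean TPM of 5.02, 4.90, 5.66 and 5.42. Without that mock library the value in siFLuc cells at 12 h was 2.55.

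TRIM14 (chr9:98069275-98119212, minus strand) is a mitochondrial adaptor that works with MAVS and, unlike the other members, lacks a RING domain, so it is not itself a RING-type ligase. It went from 13.4, 11.7 and 11.1 TPM to 117, 104 and 87.0 TPM in siFLuc cells at 8 h, with log2 fold changes of 2.98, 2.84, 3.00 and 2.70 (SE 0.15; limma, adjusted p = 2.15e-12 in siFLuc at 8 h). TRIM56 (chr7:101085439-101097967, plus strand), linked to signalling through STING and through TLR3, went from 11.9, 8.40 and 9.18 TPM to 37.0, 25.003 and 27.2 TPM. The library numbered 1 was the highest of the 3 in both groups. Its log2 fold changes of 1.4995, 1.67, 1.29 and 1.62 (SE 0.17; limma, adjusted p = 1.48e-06 in siFLuc at 8 h) were among the smaller ones.

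TRIM38 and TRIM26 are known mainly as brakes on antiviral and inflammatory signalling, and both lie on chromosome 6. TRIM38 (chr6:25962802-25991226, plus strand), which promotes loss of signalling proteins such as TRAF6 and TRIF, went from 3.19, 3.04 and 2.67 TPM to 23.4, 20.9 and 17.6 TPM in siFLuc cells at 8 h. It rose by 2.44, 2.22, 2.47 and 2.13 on the log2 scale (SE 0.13; limma, adjusted p = 3.8e-12 in siFLuc at 8 h). TRIM26 (chr6:30184455-30213427, minus strand), in the major histocompatibility complex region, encodes a ligase reported to act on nuclear IRF3. It went from 16.0, 14.5 and 14.7 TPM to 49.4, 45.3 and 41.4 TPM at 8 h and from 16.6, 14.0 and 36.7 TPM to 42.0, 39.99 and 52.2 TPM at 12 h in siFLuc cells. The last of these mock values at 12 h, from the library with the low mitochondrial share, was far above the other two; the part of that library's makeup in the value was not tested. In siBOP1 cells TRIM26 went from 12.9, 14.6 and 16.7 to 42.6, 39.4 and 45.3 TPM at 8 h and from 14.9, 16.0 and 21.0 to 33.0, 37.8 and 49.2 TPM at 12 h. The library numbered 4 thus had the highest TRIM26 value in every group at 12 h and in both siBOP1 groups at 8 h. In both siFLuc groups at 8 h the library numbered 1 had it.

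The IFN effect on TRIM26 was 1.53, 1.08, 1.47 and 1.16 on the log2 scale (SE 0.23; limma, adjusted p = 6.72e-05, 0.00257, 9.41e-05 and 0.00127). The value for siFLuc cells at 12 h was 1.48 without the mock library numbered 4, and all 10 members passed the test there without it. Fitted on the 6 libraries of that comparison alone, TRIM26 did not pass (limma, adjusted p = 0.15, against 0.00257 with the spread of all 24 libraries). TRIM26 and TRIM56 had the smallest IFN effects of the 10 genes in all 4 comparisons.

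TRIM69 (chr15:44728988-44767829, plus strand) encodes a ligase that restricts vesicular stomatitis virus. Its TPM in siFLuc cells was 5.59, 6.62 and 7.98 in mock and 45.4, 46.9 and 35.6 with IFN at 8 h, and 8.01, 5.68 and 4.21 in mock and 40.2, 33.2 and 32.9 with IFN at 12 h. In siBOP1 cells it was 4.18, 5.00 and 3.75 in mock and 38.6, 37.5 and 39.5 with IFN at 8 h, and 4.18, 5.29 and 3.24 in mock and 30.7, 34.9 and 26.9 with IFN at 12 h. The IFN values of both siRNA conditions overlapped, while the mock values at 8 h did not. Its IFN effect was 2.50, 2.42, 2.90 and 2.62 on the log2 scale (SE 0.18; limma, adjusted p = 9.94e-10 in siFLuc at 8 h).

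The effect of the BOP1 siRNA on these genes was small beside that of IFN. None of the 10 passed the test in any of the 4 comparisons of siBOP1 with siFLuc cells, in which limma called 2.16% of all genes in mock cells at 8 h, 1.6% in mock cells at 12 h, 2% in IFN cells at 8 h and 0.66% in IFN cells at 12 h, in either direction. At an unadjusted p under 0.05, 4, 1, 1 and 0 members passed in the same order, as did 2076, 2051, 2191 and 1444 of all genes tested. The members' log2 differences ran from -0.54 to 0.13, from -0.39 to 0.09, from -0.31 to 0.06 and from -0.20 to 0.01, with medians of -0.16, -0.02, -0.11 and -0.14. They were below 0 for 8, 6, 8 and 8 of the 10 genes, and for 7112, 7900, 8366 and 8419 of 16062 genes tested. The median over all genes tested was 0.03, 0.00, -0.01 and -0.01. The libraries of both siRNAs did not overlap for 3, 0, 2 and 2 members, each lower in siBOP1, against 20.1%, 17.9%, 19.8% and 13% of all genes in either direction. The share of all genes lower in siBOP1 without overlap was not counted, so these figures are not like for like.

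**Figure D4:**
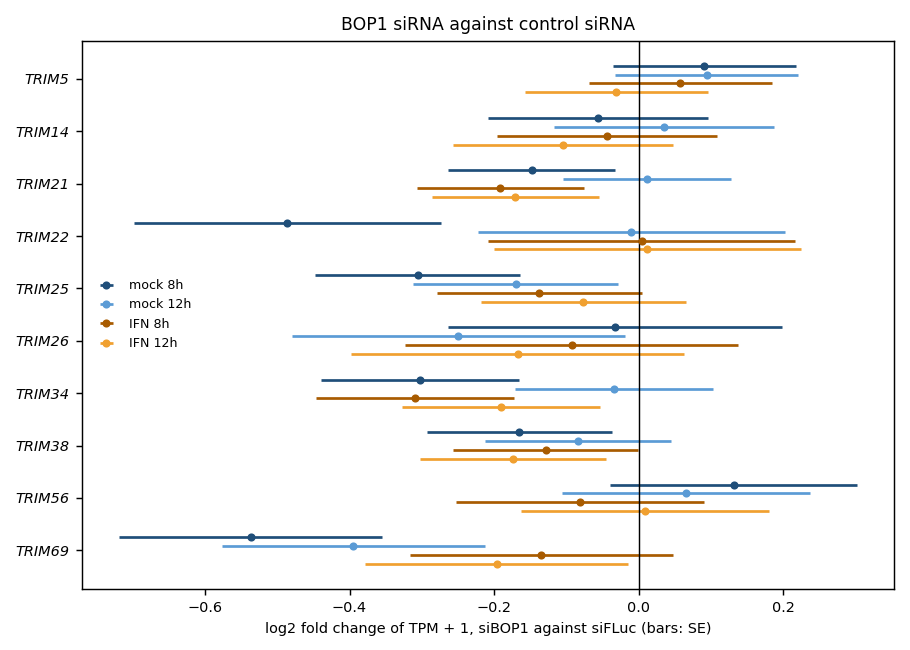
Log2 fold change of TPM + 1 between siBOP1 and siFLuc cells (x axis) for each TRIM gene, with limma standard errors as bars, in mock and IFN cells at 8 h and 12 h. The values lie between -0.54 (TRIM69, mock at 8 h) and 0.13 (TRIM56, mock at 8 h), and none has an adjusted p under 0.05.

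The 4 members with an unadjusted p under 0.05 in mock cells at 8 h were TRIM69, TRIM22, TRIM34 and TRIM25. TRIM69 had the lowest value, -0.54 (SE 0.18; limma, adjusted p = 0.15), from 6.73 ± 1.20 TPM in siFLuc to 4.31 ± 0.633 TPM in siBOP1 cells, with no overlap. At 12 h in mock cells its difference was -0.39 (adjusted p = 0.366, limma), and with IFN -0.13 and -0.20 (adjusted p = 0.845 and 0.882, limma). TRIM22 in mock cells at 8 h differed by -0.49 (SE 0.21; limma, adjusted p = 0.318), with overlap, at levels of about 1 TPM. TRIM34 and TRIM25 differed by -0.30 and -0.31 (limma, adjusted p = 0.345 and 0.36), both without overlap. In IFN cells at 8 h TRIM34 and TRIM21 were lower without overlap, by -0.31 and -0.19 (limma, adjusted p = 0.31 and 0.521). At 12 h TRIM21 and TRIM38 were, by -0.17 each (limma, adjusted p = 0.771 and 0.811). With the library number within each time as a block, TRIM69 and TRIM22 passed the test in mock cells at 8 h (limma, adjusted p = 0.0363 and 0.0495), where 2.58% of all genes were called lower. With only the libraries numbered 1 and 2 in that blocked fit, TRIM22 passed, at -0.71 (limma, adjusted p = 0.0213), and TRIM69 did not.

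The difference between the IFN effects of siBOP1 and siFLuc cells was tested directly. No member passed at 8 h or at 12 h, nor did any other gene (0% of genes tested called at either time). At an unadjusted p under 0.05, 353 genes passed at 8 h and 259 at 12 h, with 0 members in either. The members' differences lay between -0.21 and 0.49 at 8 h and between -0.18 and 0.20 at 12 h. The highest were TRIM22 at 0.49 (SE 0.30) and TRIM69 at 0.40 (SE 0.26) at 8 h, both with an adjusted p of 1.0 in limma. Missing the threshold does not show that the IFN effects were equal.

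The difference between the IFN effects at 12 h and 8 h did not pass the test for any member either, and limma called 0.00623% of all genes in siFLuc cells (1 gene) and 0% in siBOP1 cells. TRIM21 was the single member with an unadjusted p under 0.05, in both siRNA conditions. Its IFN effect at 12 h was -0.43 in siFLuc (SE 0.16) and -0.57 in siBOP1 cells (SE 0.16) relative to that at 8 h, with an adjusted p of 1.0 in each (limma). At that unadjusted threshold 575 and 603 of all genes passed. The other members lay between -0.45 and 0.33.

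Of 61 other TRIM genes, 38 were expressed enough to be tested, and most of them did not pass the test with IFN. In each of the 4 comparisons 3 were called higher, and 2, 2, 5 and 4 lower, with medians of -0.08, 0.01, -0.07 and 0.03. Over all genes tested, 5.77%, 7.06%, 5.99% and 7.17% were called higher and 5.07%, 6.43%, 9.11% and 7.58% lower. PML, the organizer of nuclear bodies and an antiviral TRIM itself, rose by 3.31, 2.84, 3.10 and 3.08 on the log2 scale. Its TPM in siFLuc cells at 8 h was 8.95, 7.83 and 6.85 in mock and 107, 79.4 and 76.0 with IFN, so its change lay within the range of the 10 genes. TRIM31, which acts on MAVS, went from 5.36 ± 0.408 to 21.0 ± 3.74 TPM in the same groups and rose by 1.78, 2.08, 1.73 and 2.13. TRIM44, which lacks a RING domain, went from 35.4 ± 2.06 to 54.0 ± 8.19 TPM and rose by 0.59, 0.72, 0.80 and 0.73 (limma, highest adjusted p among these 12 values = 0.029). PML and TRIM31 passed under every setting tried. TRIM44 in siFLuc cells at 8 h did not pass without any of the 3 mock libraries or without the IFN library numbered 1 or 2 (limma, adjusted p between 0.057 and 0.138). No gene of this list was called lower in all 4 comparisons, though some, such as TRIM2, lay below 0 in each.

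**Figure D5:**
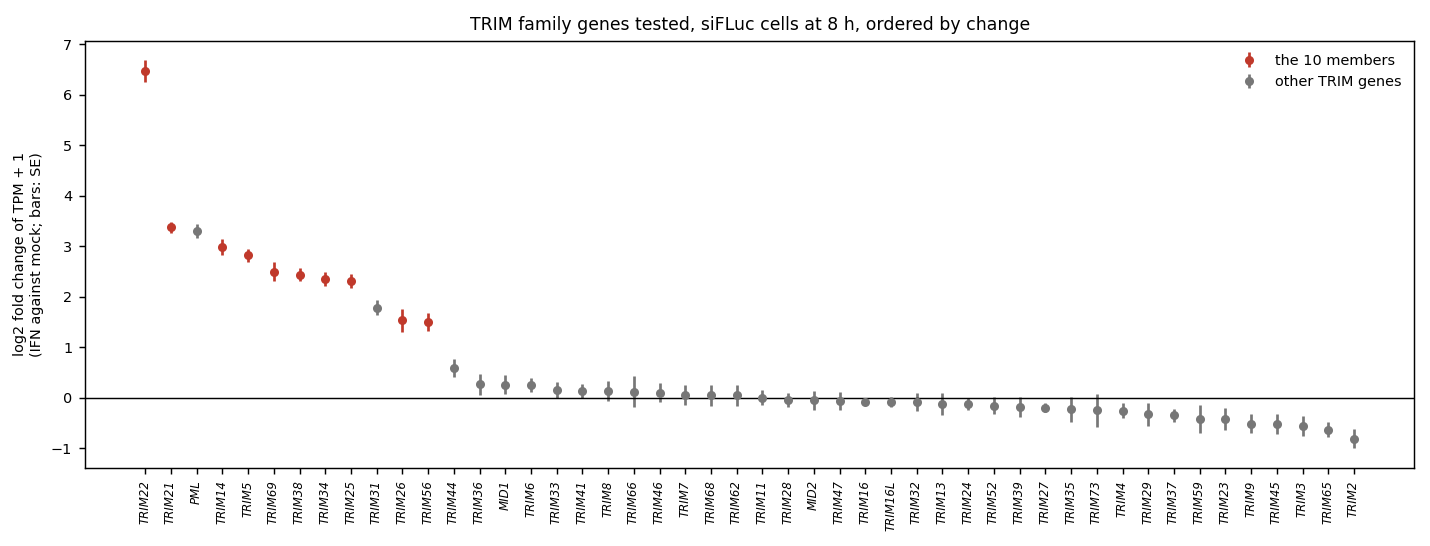
Log2 fold change of TPM + 1 between IFN and mock in siFLuc cells at 8 h (y axis) for the 48 TRIM family genes tested, ordered by size, with limma standard errors as bars; red marks the 10 genes described here and grey the other 38. PML and TRIM31 lie among the red points, and the remaining grey points lie between -0.82 (TRIM2) and 0.59 (TRIM44).

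A list of 30 genes taken as partners of TRIM proteins was measured beside them, and all 30 were tested. It held sensors, adaptors, kinases, transcription factors, ubiquitin-conjugating enzymes and other genes, such as SP110. Whether each protein is modified by a TRIM ligase or works with one was not tested. In the 4 comparisons 8, 8, 9 and 10 were called higher and none lower, and 8 were called higher in all 4. Over all genes tested, 5.77% to 7.17% were called higher and 5.07% to 9.11% lower. ISG15, the ubiquitin-like modifier, rose by 7.41, 7.36, 7.64 and 7.63 on the log2 scale. IRF7, the transcription factor that amplifies interferon production, rose by 6.08, 5.56, 6.21 and 5.92. RIGI, the gene of the RIG-I sensor that TRIM25 modifies, went from 5.77 ± 0.757 to 339.7 ± 26.2 TPM in siFLuc cells at 8 h (5.66). SP110, a nuclear body component, rose by 4.77 there. The others were smaller: ZC3HAV1, the zinc finger antiviral protein, rose by 0.71, TICAM1, the gene of TRIF, by 0.67, and the kinase gene TBK1 by 0.41, in siFLuc cells at 8 h. TBK1 did not pass there without the mock library numbered 2 or 4 or the IFN library numbered 1 or 2 (limma, adjusted p between 0.0536 and 0.0818), nor ZC3HAV1 without the mock library numbered 4 (limma, adjusted p = 0.067). STING1, the partner of TRIM56, rose by 0.93 but stayed low, from 0.490 ± 0.265 to 1.87 ± 0.752 TPM. At such levels the added 1 makes the change look smaller, and its ratio of mean TPM was 3.83, 8.31, 3.88 and 7.11 in the 4 comparisons. The median of the list was 0.08, 0.05, 0.06 and 0.14 in the 4 comparisons.

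For each of the 10 genes, the other gene with the most similar profile was found by Pearson r of log2(TPM + 1) over the 24 libraries. The libraries all share the split into mock and IFN, and r is given as a description with no test. TRIM22 was closest to IFIT2 (r = 0.998), TRIM14 to ZNFX1 (0.998), TRIM21 to MYD88 (0.997) and TRIM5 to SPATS2L (0.995). TRIM25 was closest to EIF2AK2, the gene of protein kinase R (0.994), TRIM38 to RIGI (0.993), TRIM34 to TRIM22 (0.993) and TRIM69 to SAMD9 (0.988). The lowest of these were TRIM56 with CHROMR (0.975) and TRIM26 with IRF1 (0.971).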

How the data were processed

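The authors deposited 1 table of TPM values for 60609 gene rows and 24 columns, each summing to 1000000. Per the labels, libraries were made from A549 RNA with a stranded mRNA kit, and the aligner, quantification tool, build and annotation are not given in the sources used here. TPM keeps no sequencing depth, so depth is unknown and no counting interval was given. Of the columns, 16 carry a number that matches a labelled replicate. The other 8, 1 per group, carry the number 4, whereas labels run to 3, and were counted as members of their group, with no labelled replicate. No 2 columns were identical. Nothing in the labels says whether replicates were separate cultures, so p-values measure the spread between these libraries.

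Ensembl IDs were turned into symbols with a reference list (60340 rows named). Gene positions came from GENCODE 29 on GRCh38, whose ID versions differ from many in the table, and promoter windows came from RefSeq. A second motif was also searched in them and is not reported here. The tool limma (3.58.1, R 4.3.3) tested log2(TPM + 1) values (empirical Bayes with an intensity trend, 1 mean per group over 24 libraries), for the 16062 genes that reached 1 TPM in 3 or more libraries. The 12 comparisons were 4 IFN effects, 4 BOP1 siRNA effects and 4 interactions, with Benjamini-Hochberg adjustment over all genes within each and a threshold of 0.05. Deviations of same-numbered libraries from their group means correlated at 0.115 to 0.508 over 8 comparisons and 3 numbers, so the number was also used as a block. Named were all 10 members, BOP1, TRIM6 and its readthrough gene, listed genes past the threshold in the same direction in all 4 IFN effects, and the gene most like each member; TRIM2 was named after its value was seen. Members and lists were chosen with earlier results of these data known. Proteins were not analysed here.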

Additional observations from a re-analysis of the deposited data

How the results depend on the processing

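The 40 IFN effects of the 10 genes were recomputed under 9 other settings (a pseudocount of 0.1, quantile normalization, median-of-ratios rescaling, no filter, a mean of at least 5 TPM as the filter, no intensity trend, only the groups compared, and 2 fits with a replicate block) and without each library in turn. The filters, the trend, the groups fitted and the block on all libraries leave the fold change itself unchanged, so no direction could reverse in those settings. Of 600 values 599 kept their direction and stayed past the threshold, and none reversed. The exception, whose reason was not tested, was TRIM26 in siFLuc cells at 12 h, fitted on the groups compared (1.08, SE 0.35, limma adjusted p = 0.15). Its SE was 0.23 in the fit on all 24 libraries. Without each library in turn that effect lay between 0.82 and 1.48.

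With the replicate block (library number within time) the number of members lower with the BOP1 siRNA in mock cells at 8 h went from 0 to 2, and with the block on numbers 1 and 2 alone to 1. The block changed no other call on a member. TRIM6 in siBOP1 cells at 12 h passed with the block, also on numbers 1 and 2 alone (adjusted p = 0.0498), and with both rescalings. The listed genes were run under the same settings, a choice made after seeing the data. PML, TRIM31, ISG15, IRF7, RIGI and SP110 passed in all 60 values each, while TBK1 lost the threshold in 15 of 60, ZC3HAV1 in 9, TRIM44 in 7, TICAM1 in 1 and STING1 in 1 of 56. For ZC3HAV1, 8 of the 9 were in siBOP1 cells at 8 h, among them all fits without 1 library other than the mock library numbered 1. Over the 4 IFN effects and all settings, 2 to 7 of the other TRIM genes were higher and 0 to 9 lower, and 6 to 13 of the partner genes were higher and 0 to 3 lower. Counts over all genes moved more, and the cause was not tested. Over all settings, fits without 1 library included, genes higher and lower with IFN ranged as follows: lower in siFLuc at 8 h from 428 to 2047 (814 as reported), higher at 12 h from 668 to 1794 (1134) and lower from 283 to 2532 (1032). In siBOP1 cells they were lower at 8 h from 698 to 3278 (1464), higher at 12 h from 876 to 1857 (1152) and lower from 665 to 2661 (1218). With the BOP1 siRNA, genes higher and lower ranged from 17 to 949 and 24 to 415 in mock cells at 8 h (240 and 107), from 2 to 693 and 8 to 538 at 12 h (145 and 112), from 11 to 799 and 12 to 616 in IFN cells at 8 h (200 and 122), and from 0 to 347 and 1 to 259 at 12 h (63 and 43). In the 4 interactions at most 7 genes were higher and at most 4 lower under any setting.

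Median-of-ratios rescaling raised the median of all genes by 0.136 in the IFN effect of siBOP1 cells at 8 h. It gave 1141 genes higher and 512 lower with IFN in siFLuc cells at 8 h (927 and 814 as reported), 1373 and 803 at 12 h (1134 and 1032), 1324 and 698 in siBOP1 cells at 8 h (962 and 1464), and 1421 and 856 at 12 h (1152 and 1218). Depth is unknown, so the precision of low values, such as TRIM22 in mock cells, could not be given from counting.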
